A study of Mus musculus with 4 samples.

Results

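The Zfp900-series zinc finger genes are the mouse genes whose symbols run from Zfp900 to Zfp999, and they were taken here by symbol alone. Of the 16861 genes listed in the oocyte libraries, 51 carried such a symbol. The series number is a naming order, so the group holds neighbours in the genome as well as genes that share only a number. The levels were measured by RNA-seq in fully grown germinal vesicle (GV) oocytes of 3-week-old female C57BL/6J mice, before and after the chromatin condenses around the nucleolus. NSN oocytes have a nucleolus not surrounded by chromatin and SN oocytes have one that is, and the oocytes were sorted into these classes under Hoechst stain in medium with milrinone, which holds oocytes at the GV stage, with those that could not be classified left out. There were 4 libraries, 2 of NSN and 2 of SN oocytes. Each library pooled 15 oocytes and was prepared by Smart-seq2, a method that primes poly(A) RNA with oligo(dT) and amplifies the cDNA. The labels name no transgene and no treatment of the mice. The sources used here do not say whether replicate libraries came from separate mice, so p-values measure the spread between these libraries. The sampling protocol speaks of 3 samples per group, and 2 libraries per group were analysed here.

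Most genes of this kind encode Krüppel-associated box (KRAB) zinc finger proteins. A tandem array of C2H2 zinc fingers reads the DNA sequence, and the KRAB domain recruits TRIM28, which in turn brings in the H3K9 methyltransferase SETDB1, HP1 proteins and histone deacetylases. These proteins are best known for silencing transposable elements, and a few of them, ZFP57 and ZFP445 among them, maintain imprints that the germline sets. Among the members, ZFP932 is known to bind endogenous retroviruses.

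All but 1 of the 51 members were annotated as protein-coding, the exception being Zfp996, a transcribed processed pseudogene. A KRAB pattern was found in 46 members, in the coding sequence of the canonical transcript, the sole transcript searched for each gene. In that transcript the pattern was missing from Zfp956, Zfp957, Zfp974 and Zfp978, and the pseudogene had no coding sequence to search. The transcript searched for Zfp978 encodes only 80 residues. Other transcripts of these genes were not searched. The coding sequences held between 0 and 21 C2H2 patterns, with a median of 11. Zfp974, which has no KRAB pattern, held the 21, and no C2H2 pattern was found in Zfp957 or Zfp978. The coding sequence of a finger with its linker is given here for the most abundant members with a unit of the standard length and for Zfp937, read in GRCm39 from the coding strand, 5′ to 3′, with the codons of the zinc-binding cysteines and histidines in capitals. It shows what these units share and where they differ. The units lie at chr5:104962950-104963033 (minus strand), chr8:4678541-4678624 (plus), chr8:72722254-72722337 (plus), chr4:147597206-147597289 (plus) and chr2:150080368-150080451 (plus), in the order printed.
Zfp951: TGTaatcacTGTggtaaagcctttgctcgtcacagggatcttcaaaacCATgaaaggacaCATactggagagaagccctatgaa
Zfp958: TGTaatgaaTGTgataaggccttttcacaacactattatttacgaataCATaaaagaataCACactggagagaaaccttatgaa
Zfp961: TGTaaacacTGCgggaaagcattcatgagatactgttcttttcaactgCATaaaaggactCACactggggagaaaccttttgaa
Zfp982: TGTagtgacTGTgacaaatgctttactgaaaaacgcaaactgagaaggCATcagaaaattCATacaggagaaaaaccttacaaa
Zfp937: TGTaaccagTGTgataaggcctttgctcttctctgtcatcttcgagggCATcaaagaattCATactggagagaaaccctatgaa
Such a unit was found in 47 members, and only the first match in each coding sequence was printed or compared. First matches of different members need not be corresponding fingers. In the 36 bases between the last cysteine codon and the first histidine codon, the stretch that holds the residues facing DNA, pairs of members had a median of 50.0% identical bases, against 65.5% over the whole unit, whose framework the search itself had fixed.

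Most members shared a chromosome with other members, but only some of these lay close together. Distal chromosome 4 held 13 of them between 145397209 and 147932882, chromosome 17 held 11, chromosome 7 held 6, chromosome 8 held 5 and chromosomes 2 and 13 held 4 each. Chromosome 5 held 2, and chromosomes 6, 9, 10, 12, 14 and 19 held 1 each. A count per chromosome does not mean close neighbours, as the 5 on chromosome 8 ran from 4663132 to 72767210. Neighbours can be nearly identical copies, which bears on counting, since reads were kept only above a minimum mapping quality. The share of a gene's exonic 100-base windows that also occur elsewhere in the genome was over 20% for 17 members. On chromosome 4 its median was 54.3%, reaching 97.4% for Zfp989, whereas the 5 members on chromosome 8 had at most 0.366%. Levels of the repeated members are therefore uncertain, as reads that match several copies equally well are given a low mapping quality. Zfp942 and Zfp943 overlap head to head on opposite strands of chromosome 17, and reads were counted without strand. Other annotated genes covered 54.1% of the exonic length of Zfp935 and 61.1% of that of Zfp996, so their reads cannot be told apart from those genes' reads in the shared stretches.

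The letters before the start of transcription were examined for 43 members that had an entry in a RefSeq promoter table (GRCm38.p6). All but Zfp970 were located in GRCm39 by exact match. Starts in that table can differ from those of GENCODE, so some windows overlap annotated exons. Within the 250 bases before the start, a CCAAT box (CCAAT, either strand) occurred in 32 members, or 74.4%, against 34.5% of the 27025 genes of the table. A GC box (GGGCGG) occurred in 39.5% of members and 32.9% of all genes. A TATA box (TATAAA) and the letters TAATTG, a form of the element read by the oocyte factor NOBOX, occurred in 0 members, against 13.0% and 7.34% of all genes. Other forms of that element were not searched, and TAATTA is present in some members, Zfp980 and Zfp985 among them. A cyclic AMP response element (TGACGTCA) occurred in 1 member, Zfp953, or 2.33% against 1.62%. In Zfp953 it lay beyond the 184 bases of the window that precede the first annotated exon. The median number of CpG dinucleotides was 7 for members and 6 for all genes. Members of a cluster share sequence, so these shares do not count independent promoters. The stretch up to the first annotated exon is shown for Zfp958, which was higher in SN oocytes, and for Zfp937, Zfp954 and Zfp956, which had the lowest SN levels relative to NSN though none was called. CCAAT and GC boxes on either strand are in capitals, and CCAAT read on the other strand appears as ATTGG. The stretches lie at chr8:4662920-4663131 (plus strand), chr2:150059769-150059992 (plus strand), chr7:7124499-7124725 (minus strand) and chr6:47930074-47930323 (plus strand), in the order printed.
Zfp958: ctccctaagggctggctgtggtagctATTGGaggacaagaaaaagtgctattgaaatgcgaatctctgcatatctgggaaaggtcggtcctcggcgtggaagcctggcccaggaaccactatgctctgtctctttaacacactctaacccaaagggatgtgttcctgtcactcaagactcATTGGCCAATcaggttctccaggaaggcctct
Zfp937: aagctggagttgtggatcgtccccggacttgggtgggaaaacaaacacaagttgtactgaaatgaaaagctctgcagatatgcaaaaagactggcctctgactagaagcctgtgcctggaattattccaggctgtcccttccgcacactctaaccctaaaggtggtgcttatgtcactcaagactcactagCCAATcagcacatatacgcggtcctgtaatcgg
Zfp954: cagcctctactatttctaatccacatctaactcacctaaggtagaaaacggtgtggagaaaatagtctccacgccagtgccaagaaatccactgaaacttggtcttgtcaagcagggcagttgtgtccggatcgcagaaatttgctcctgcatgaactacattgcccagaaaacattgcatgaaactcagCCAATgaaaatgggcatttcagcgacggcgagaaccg
Zfp956: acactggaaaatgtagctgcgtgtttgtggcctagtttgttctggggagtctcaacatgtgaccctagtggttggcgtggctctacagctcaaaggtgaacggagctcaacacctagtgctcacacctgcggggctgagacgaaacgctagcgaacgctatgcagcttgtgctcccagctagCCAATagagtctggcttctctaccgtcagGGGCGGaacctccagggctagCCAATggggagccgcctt
CCAAT occurred 3 times before the first exon of Zfp958, with an adjoining pair on opposite strands among them. All 4 stretches held the box. Of the other members with low SN values named below, Zfp964 held it before its first exon and Zfp957 did not. Whether the box goes with the difference between SN and NSN oocytes was not tested. For Zfp951, the other called member, the window began inside an annotated exon, so no stretch is shown.

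Transcripts of the series were measured as FPKM, which is read pairs scaled by gene length and by library depth, so that levels can be set side by side between genes. Mean levels ran from 0.0964 for Zfp974 to 156.1 for Zfp979. No member was at 0 in any library. However, 0 of the 16861 listed genes were at 0 in 2 or more libraries, so genes of the series undetected there may be missing from the list. A mean FPKM over the 4 libraries above 100 was seen for 1 member, 20 to 100 for 8, 5 to 20 for 13, 0.5 to 5 for 19 and below 0.5 for 10. Zfp979, a KRAB gene of the chromosome 4 cluster, stood highest, with FPKM of 146.0 and 146.4 in NSN oocytes against 180.0 and 152.0 in SN oocytes. It lay at or above 97.4% of all listed genes and took 23.7% of the read pairs of the series in NSN oocytes, with 54.3% of its exonic windows repeated elsewhere. The next members were Zfp958 and Zfp961 on chromosome 8, Zfp951 on chromosome 5 and Zfp982 on chromosome 4. Zfp961 had 76.0 and 75.4 in NSN and 78.0 and 97.3 in SN oocytes, and Zfp982 had 39.8 and 38.5 against 45.7 and 50.1. For Zfp979, Zfp961 and Zfp982 the SN libraries lay above the NSN libraries, but limma adjusted p-values were 0.253, 0.268 and 0.087. Their log2 fold changes were 0.18, 0.20 and 0.28, and after median scaling 0.02, 0.05 and 0.13. Without SN replicate 1 that of Zfp979 was 0.06, and without SN replicate 2 that of Zfp961 was 0.04. The mean of Zfp961, 81.7, lay within the range of Zfp958 over the 4 libraries.

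At the other end, 10 members had a mean FPKM below 0.5 and were not tested: Zfp935, Zfp945, Zfp948, Zfp953, Zfp970, Zfp971, Zfp974, Zfp981, Zfp988 and Zfp991. Their FPKM in single libraries ran from 0.0399 for Zfp988 to 0.505 for Zfp948. For a gene of 1 kb, 3 read pairs correspond to an FPKM of 0.167 to 0.176 at these depths, a limit for counting error alone, because copies made by PCR do not count molecules independently. The groups overlapped for 6 of them, and no difference was tested at these levels. The 5 members on chromosome 8 had a median FPKM of 26.9 and those on chromosome 17 of 11.1, against 2.63 on chromosome 4 and 0.953 on chromosome 7.

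**Figure D1:**
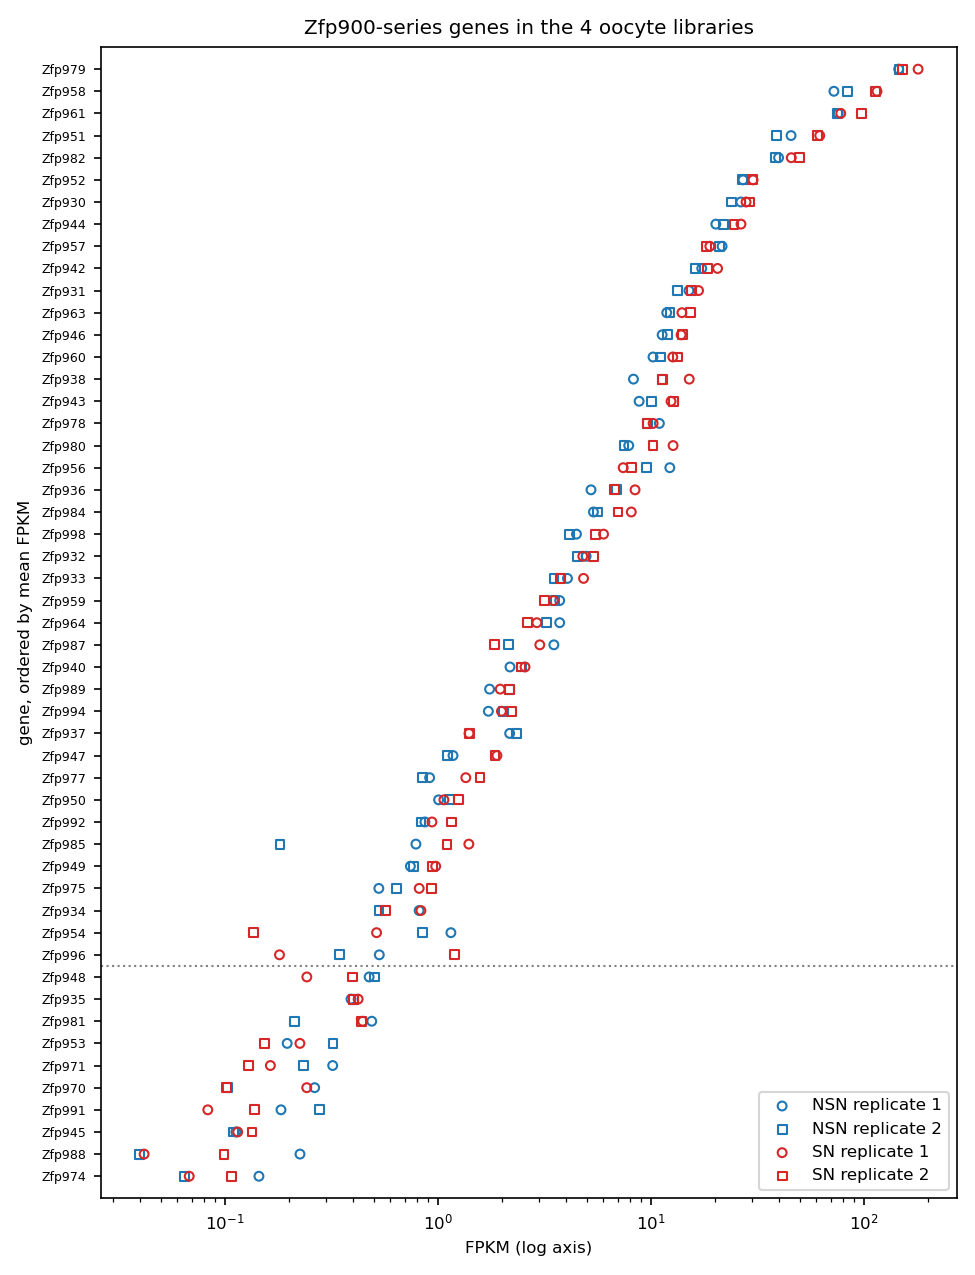
FPKM (log axis) of the 51 Zfp900-series genes in each of the 4 libraries, ordered by mean; circles and squares are replicates 1 and 2, blue is NSN and red is SN, and the dotted line separates the members with a mean FPKM below 0.5, which were not tested. Levels run from under 0.1 to 180, and replicates of the better expressed members lie close together.

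The central comparison asked which of these genes differ between NSN and SN oocytes. Zfp951 and Zfp958, both KRAB genes, were higher in SN oocytes, and no member was called lower. Calls came from limma on log2(FPKM + 0.5) over 11672 genes and required a fold of 1.2 or more together with an adjusted p (Benjamini-Hochberg) below 0.05. The 2 calls are 4.88% of the 41 members tested, while 5.95% of all genes tested were called higher and 1.98% lower. The share of members called was thus near that of all genes.

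Zfp958 lies at chr8:4663132-4682329, on the plus strand, and encodes 13 C2H2 patterns. Its FPKM was 72.5 and 84.2 in NSN oocytes and 115.5 and 113.4 in SN oocytes. Both SN libraries stood well above both NSN libraries, and the log2 fold change was 0.55 (SE 0.0942, limma adjusted p = 0.0375), a 1.46-fold higher level. None of its exonic 100-base windows occurs elsewhere.

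Zfp951 lies at chr5:104960515-105008190, on the minus strand, and encodes 10 C2H2 patterns. Its FPKM was 45.6 and 38.97 in NSN oocytes against 62.2 and 60.7 in SN oocytes, again without overlap. The log2 fold change was 0.54 (SE 0.09996, limma adjusted p = 0.0390), or 1.45-fold. Only 2.45% of its windows are repeated.

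These calls depended on the scaling and on single libraries. With each library scaled to the median ratio of its genes, the log2 fold changes were 0.39 for Zfp958 and 0.38 for Zfp951, with limma adjusted p-values of 0.0606 and 0.0977. Without NSN replicate 1, SN replicate 1 or SN replicate 2, the adjusted p-values were 0.0946, 0.0792 and 0.0937 for Zfp958 and 0.0679, 0.0924 and 0.0995 for Zfp951, and without NSN replicate 2 they were 0.0128 and 0.0382. With 2 libraries against 2, a two-sided exact permutation test cannot give a p below 0.333, so the calls rest on the spread that limma shares across genes.

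Higher values in SN oocytes were common in the series short of a call. Both SN libraries lay above both NSN libraries for 24 of the 41 members, or 58.5%. This compares with 50.3% of the other tested genes named Zfp with a number and 44.8% of all genes tested. Both lay below for 6 members, or 14.6%, against 10.1% of those other Zfp genes and 17.8% of all genes. The groups overlapped for 11 members. The median log2 fold change was 0.20 over the members, 0.14 over the 189 tested of the 256 other listed genes named Zfp with a number, and 0.14 over all genes. FPKM are relative to the library total, and less RNA of abundant genes per oocyte and more RNA of the others cannot be told apart. Scaled to the median gene, the medians were 0.06 for the members, 0.03 for the other Zfp genes and 0.01 for all genes, and the number of members with a positive log2 fold change went from 33 to 28. Unadjusted limma p-values under 0.05 were found for 14 members in the higher and 3 in the lower direction, 41.5% of those tested against 31.7% of all genes. After median scaling there were 7 in the higher and 5 in the lower direction, 29.3% against 27.1%.

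**Figure D2:**
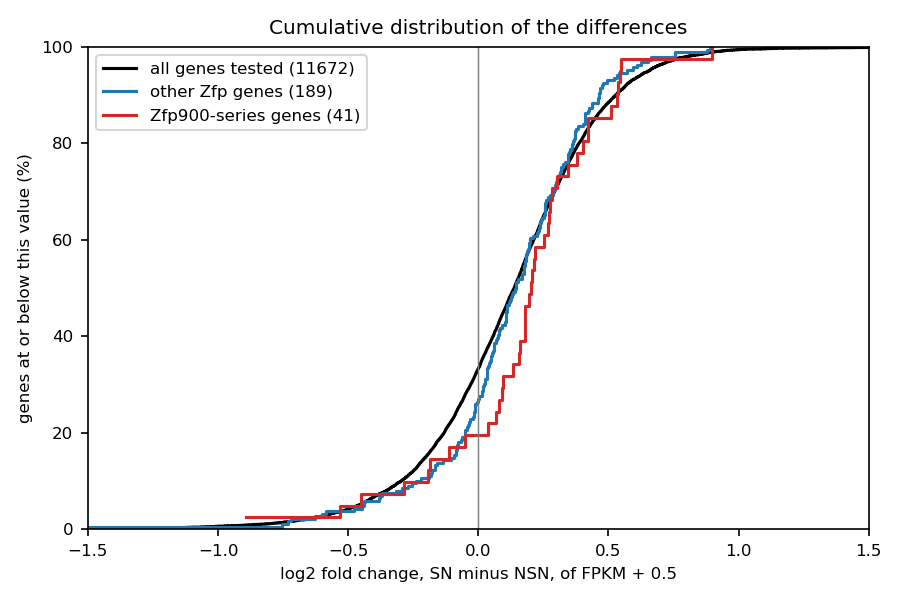
Cumulative share of genes (%) at or below each log2 fold change of FPKM + 0.5, SN minus NSN, for the 41 Zfp900-series genes (red), the 189 other Zfp genes (blue) and all 11672 genes tested (black). The red curve runs to the right of the black curve in the middle of the range, with medians of 0.20 and 0.14, and the curves cross towards both ends; after median scaling these medians were 0.06 and 0.01.

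Besides Zfp951 and Zfp958, the largest positive fold changes without overlap of the groups belonged to Zfp985, Zfp980 and Zfp947, none of them called. Zfp985, on chromosome 4, had FPKM of 0.790 and 0.182 in NSN and 1.40 and 1.11 in SN oocytes. The NSN values rest on 38 and 9 read pairs and differ 4.34-fold, so the log2 fold change of 0.90 carried an SE of 0.312 (limma adjusted p = 0.110). It was 0.44 without NSN replicate 2 and 1.36 without NSN replicate 1, and voom on the read pairs gave 1.69 with total and 1.55 with median scaling. Zfp980, also on chromosome 4, had 7.89 and 7.498 against 12.7 and 10.2, a log2 fold change of 0.54 (SE 0.134, limma adjusted p = 0.0568). In Zfp980, 65.0% of the exonic windows are repeated elsewhere. Zfp947, on chromosome 17, had 1.18 and 1.11 against 1.90 and 1.86, a log2 fold change of 0.53 (SE 0.154, limma adjusted p = 0.0767).

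The members with the lowest SN values relative to NSN were Zfp954, Zfp937, Zfp956, Zfp964 and Zfp957, again none of them called. Zfp954, on chromosome 7, had FPKM of 1.15 and 0.848 in NSN oocytes and 0.516 and 0.136 in SN oocytes, from 41, 31, 18 and 5 read pairs. Its SN replicates differed 3.80-fold, and the log2 fold change was -0.89 (SE 0.269, limma adjusted p = 0.0826). Without SN replicate 2 it was -0.55, and voom on the read pairs gave -1.85 with total and -1.99 with median scaling. Zfp937, on chromosome 2, had close replicates, 2.18 and 2.34 in NSN and 1.40 and 1.41 in SN oocytes, with a log2 fold change of -0.53 (SE 0.150, limma adjusted p = 0.0726). With voom and median scaling it was -0.83.

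Zfp956, which lacks the KRAB pattern, had 12.3 and 9.52 in NSN oocytes and 7.43 and 8.15 in SN oocytes, a log2 fold change of -0.45 (SE 0.146, limma adjusted p = 0.0950). It was -0.28 without NSN replicate 1. Zfp957, in which neither pattern was found, had 21.6 and 21.1 against 18.9 and 18.3, and its log2 fold change was -0.19 (SE 0.0911, limma adjusted p = 0.197). For Zfp964, on chromosome 8, the values were 3.74 and 3.25 against 2.92 and 2.63, and the log2 fold change was -0.28 (SE 0.145, limma adjusted p = 0.226). After median scaling the log2 fold change of Zfp957 was -0.34, and with voom and median scaling that of Zfp964 was -0.48. Chromosome 8 thus held members on both sides, since Zfp930, Zfp958, Zfp961 and Zfp963 had SN libraries above NSN libraries.

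**Figure D3:**
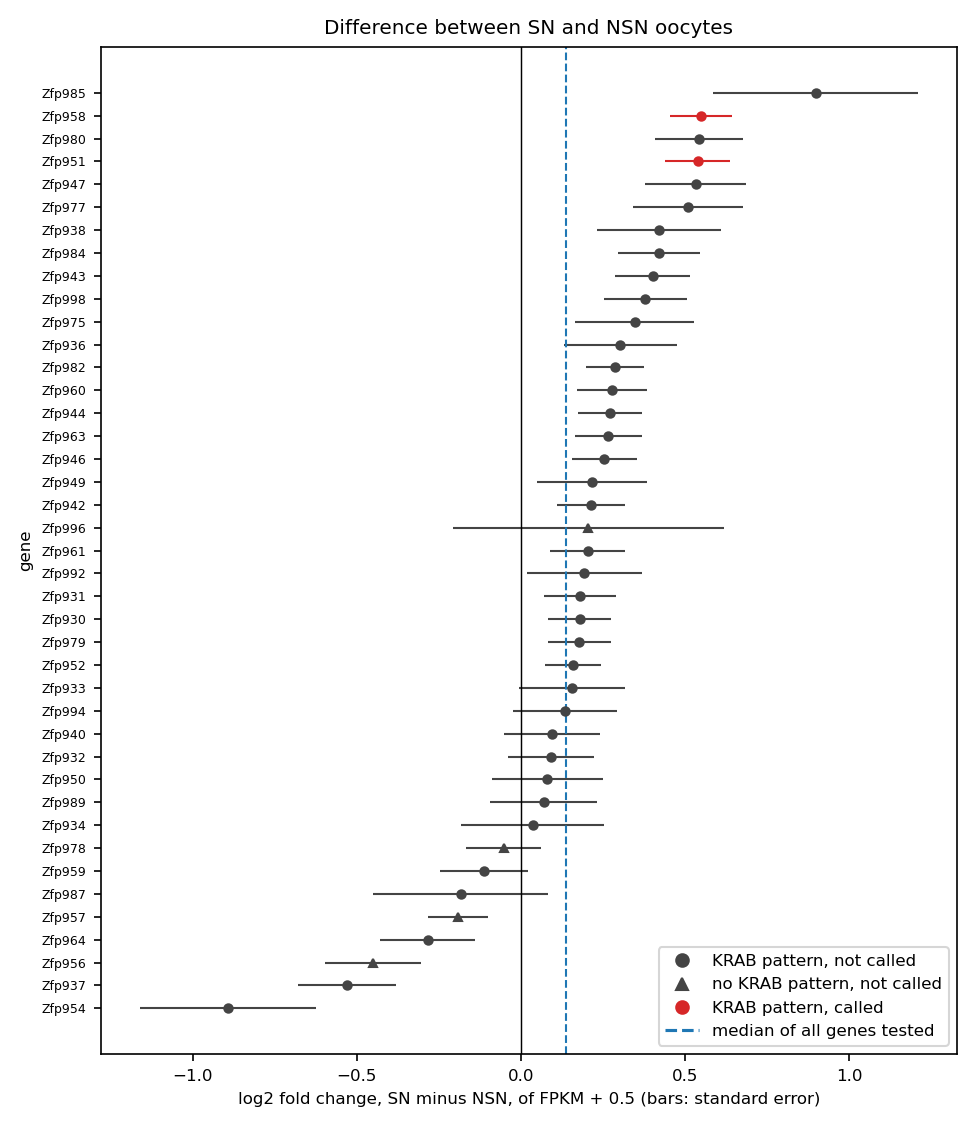
Log2 fold change of FPKM + 0.5, SN minus NSN, with its standard error, for the 41 members tested. Red marks the 2 called members and the dashed line is the median of all genes, 0.14. Triangles mark members without a KRAB pattern, among them the pseudogene Zfp996, which had no coding sequence to search. With the libraries as deposited 33 members lie to the right of 0, and after median scaling 28.

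Read pairs could be recovered from the FPKM as whole numbers, so the comparison was repeated with limma's voom, which weights each gene by its depth. With total scaling, voom called 8 members higher, Zfp943, Zfp947, Zfp951, Zfp958, Zfp977, Zfp980, Zfp984 and Zfp985, or 19.5%, against 15.1% of all genes, and 3 lower, Zfp937, Zfp954 and Zfp956, or 7.32%, against 4.57%. With median scaling it called Zfp951, Zfp958 and Zfp980 higher and Zfp937, Zfp954, Zfp956 and Zfp957 lower, 7.32% and 9.76% of members against 6.37% and 8.24% of all genes. Zfp951 and Zfp958 passed under either scaling, with voom adjusted p-values of 0.0277 and 0.0204 after median scaling. The balance of higher and lower calls therefore turned with the scaling, from 695 higher and 231 lower over all genes on the deposited FPKM to 78 and 179 after median scaling.

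By position, the 9 tested members on chromosome 17 had a median log2 fold change of 0.25, the 10 on chromosome 4 of 0.19, the 5 on chromosome 7 of 0.30 and the 5 on chromosome 8 of 0.20. On chromosome 17, SN libraries lay above NSN libraries for 7 members, below for Zfp959 and overlapping for Zfp994. On chromosome 4 they lay above for 6 of 10 and overlapped for the other 4. The 37 tested members with a KRAB pattern had a median of 0.21, and the 4 without had -0.12, with 2 of these 4 having lower SN libraries and 2 overlapping. The share of repeated windows did not order the changes: medians were 0.17, 0.23 and 0.19 for members with at most 1%, 1% to 20% and over 20% of windows repeated. These are descriptions of few genes, and the groups were not tested against each other.

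**Figure D4:**
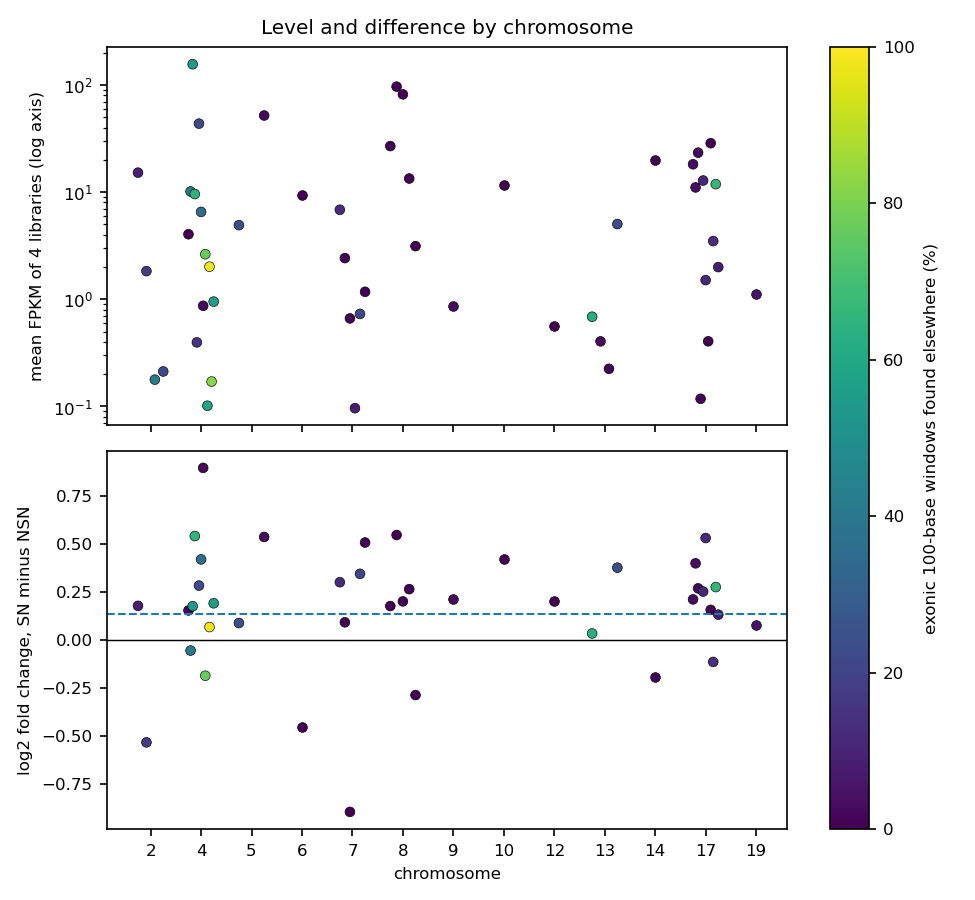
Mean FPKM of the 51 members (top, log axis) and log2 fold change, SN minus NSN, of the 41 tested (bottom), by chromosome; points are spread sideways within a chromosome and coloured by the share of exonic 100-base windows found elsewhere, and the dashed line is the median of all genes. The repeated members sit mainly on chromosome 4, and on chromosomes 4 and 17 most changes lie above 0, after median scaling too.

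The genes that KRAB zinc finger proteins act with were measured as a list of 26, of which 25 were tested and Chd3 had too low a level. With limma, 5 rose in SN oocytes and 0 fell, the former 20% of those tested against 5.95% of all genes. The list's median log2 fold change was 0.17, close to the 0.14 of all genes. An unadjusted p under 0.05 was found for 10 genes in the higher and 1, Hdac1, in the lower direction. Together these were 44% of those tested, against 31.7% of all genes. Setdb1, the H3K9 methyltransferase, had FPKM of 21.2 and 23.3 in NSN and 33.8 and 30.6 in SN oocytes, a log2 fold change of 0.52 (SE 0.101, limma adjusted p = 0.0413). The other 4 were Atf7ip2, a partner of SETDB1, with a log2 fold change of 0.57, Chd4, the remodelling ATPase of the NuRD complex, with 0.55, the deacetylase gene Hdac2 with 0.58 and Smarcad1, a remodeller that binds TRIM28, with 0.56 (limma adjusted p-values of 0.0406, 0.0457, 0.0393 and 0.0473). For all 5 both SN libraries lay above both NSN libraries. None of the 25 was called after median scaling or with the replicate number as a block, where 7 and 9 had an unadjusted p under 0.05. These were 28% and 36% of those tested, against 27.1% and 29.2% of all genes. With voom 8 were called higher under total scaling, 32% against 15.1% of all genes. Under median scaling voom called 5 higher, 20% against 6.37% of all genes. It called Hdac1 lower, whose limma estimate was -0.47 (adjusted p = 0.0804), or 4% against 8.24% of all genes.

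Trim28, the co-repressor that the KRAB domain binds, had FPKM of 7.10 and 9.69 in NSN oocytes and 10.2 and 9.09 in SN oocytes, with overlapping groups (limma adjusted p = 0.420). Zfp57 was more abundant than any member of the series, with 1496 and 1419 in NSN and 1406 and 1482 in SN oocytes, and the groups overlapped, with a log2 fold change of -0.01 (SE 0.0706, limma adjusted p = 0.916). Zfp445 had 2.184 and 2.201 against 2.80 and 3.38, a log2 fold change of 0.41 (SE 0.151, limma adjusted p = 0.122).

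The libraries matched their label as oocytes. All 10 oocyte markers were listed, with a summed FPKM of 21270 to 22463 in NSN and 14753 to 15497 in SN libraries, and 7 of them were called lower in SN oocytes, Gdf9 by the most (log2 fold change -1.07). Of 12 granulosa and cumulus genes 7 were listed, with Amh, Amhr2 and Foxl2 absent from the list, a summed FPKM of 9.18 to 13.0 in NSN and 13.0 to 13.6 in SN libraries. Of 4 tested, limma called 0, and 0 had an unadjusted p under 0.05. Theca and blood cells had 1 listed gene each, of 5 and 4, Pdgfra with an FPKM of at most 0.0318, and Cd68, with at most 0.972. The Zfp900-series took 0.161% and 0.158% of the read pairs of NSN oocytes against 0.191% and 0.186% of those of SN oocytes, of totals from 17069772 to 17998361. Whether the lower share of abundant oocyte transcripts had a part in the higher share of these genes was not tested.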

How the data were processed

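Poly(A) RNA was measured in 2 NSN and 2 SN libraries of GV oocytes. The authors trimmed reads with Trim Galore 0.6.10, aligned the trimmed pairs to GRCm39 by HISAT2 and assigned primary alignments with a mapping quality of 10 or more to GENCODE M34 exons by featureCounts, ignoring strand. The deposited FPKM came from an in-house script. The authors tested their counts with DESeq2. Those counts were not used here.

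Here log2(FPKM + 0.5) of the 11672 genes that averaged 0.5 FPKM or more was compared with limma 3.58.1 in R 4.3.3 (eBayes with a variance trend, two-sided, Benjamini-Hochberg over all genes). Fold changes on this scale understate the change of low genes. The procedure was tested on simulated data. Library totals were recovered from 20 mitochondrial genes of known length, and whole read pairs then for 16845 genes (99.9%). They are the smallest whole numbers that the FPKM allow and may stand for a small multiple. For Zfp958 the gene length recovered with them was shorter than its coding sequence of 467 residues, so its read pairs are understated. Its voom p-values and the shares of read pairs given for the series rest on these pairs. Positions, overlaps and 100-base windows came from GENCODE M39. C2H2 and KRAB patterns were searched in the translated coding sequence of each gene's canonical transcript there, since no RefSeq protein was used. A KRAB pattern needed 14 of 37 consensus positions, a limit set after seeing the values. Zfp970 could not be placed uniquely in GRCm39 from its promoter letters.

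The members and lists were chosen with earlier results of these data known. Named were members called by limma, the 5 with the highest mean FPKM, the 5 largest rises and falls without overlap of the groups, untested members by symbol, and, of the co-repressor list, Trim28, Setdb1, Zfp57, Zfp445 and called genes. Members lost or gained under alternatives, Hdac1 and the genes singled out for sequence features or position were named after their values were seen. Alternatives were pseudocounts of 0.1 and 1, no filter, a mean FPKM of at least 5, median scaling, limma without the trend, a block for the replicate number, a loess correction for length, voom on read pairs, and each library left out. Python 3.11.15, numpy 2.4.6, pandas 2.3.3 and matplotlib 3.10.9 were used for other values and plots.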

Additional observations from a re-analysis of the deposited data

How the results depend on the processing

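The count of Zfp900-series genes called higher, 2, was the same with pseudocounts of 0.1 and 1 and with the replicate block. It was 0 with no filter, with median scaling, without the variance trend and with the length correction alone or with the block. With a mean FPKM of at least 5 it was 5 of 22 tested, 22.7% against 21.2% of all genes. It was 8 with voom and total scaling (19.5% against 15.1%) and 3 with voom and median scaling (7.32% against 6.37%). The count called lower was 0 except with voom, 3 with total and 4 with median scaling. Where no member was called, unadjusted p-values under 0.05 were found for 12 to 17 members in these fits. These were 29.3% to 34.1% of members tested, against 24.1% to 29.5% of all genes. The members' median log2 fold change was 0.18 with a pseudocount of 1, 0.17 with no filter, 0.27 with a mean FPKM of at least 5, 0.062 with median scaling, 0.14 with the length correction, with or without the block, 0.21 with voom and 0.060 with voom and median scaling, and it was positive throughout. The other Zfp genes called, 7 as reported, were 0 with no filter, without the trend and with the length correction and block, 1 with median scaling and with the length correction, 2 with the block, 15 with the higher filter, 39 with voom and 15 with voom and median scaling. The co-repressor genes called, 5 as reported, were 0 with no filter, median scaling, no trend, the block and either length correction, and 8 with voom. Over all genes, 926 calls became 0 with no filter, 0 without the trend and 0 with the length correction and block. They became 1496 of the 5519 genes tested with the higher filter, 257 with median scaling and 422 with the block. They were 139 with the length correction, 2292 with voom and 1704 with voom and median scaling. In the fits with 0 calls, 2809 to 4092 genes, 35 to 58 other Zfp genes and 6 to 12 co-repressor genes had an unadjusted p under 0.05. The cause was not tested.

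Leaving out each library in turn leaves 1 library in a group, which is assumed to vary like the others. Members called higher ranged from 0 to 3, members called lower from 0 to 1 (Zfp956 without NSN replicate 2), other Zfp genes from 0 to 14, co-repressor genes from 0 to 5 and all genes from 0 to 1685, and the members' median from 0.19 to 0.22. Over all genes 0 calls were left without NSN replicate 1 (2278 at an unadjusted p under 0.05), 11 without SN replicate 2 and 148 without SN replicate 1. Log2 fold changes ranged from 0.43 to 0.65 for Zfp951 and from 0.44 to 0.66 for Zfp958. They changed sign for Trim28, from -0.0079 to 0.41, and for Zfp57, from -0.051 to 0.025. Replicate numbers were shared between the groups only as numbers: across genes, the differences between replicates 1 and 2 of NSN and of SN correlated at -0.0703. With the replicate block, adjusted p was 0.0498 for both Zfp951 and Zfp958. Of the other values of the 21 named genes under the alternatives that keep all libraries, 172 had the same direction and call, 40 lost a call, 13 gained 1 and 0 changed sign. Counts of 5 to 66 read pairs limit Zfp954 and Zfp985.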
